A study of Mus musculus with 36 samples.

Results

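Asparagine synthetase (Asns) and 6 enzymes that move amino nitrogen between amino acids and keto acids, Gpt2, Got1, Got2, Glud1, Bcat1 and Bcat2, were followed through 36 RNA-seq libraries of mouse embryonic fibroblasts (MEFs). The 7 genes were chosen by name: each matched 1 entry of the count table, out of 36856 gene symbols, and all 7 were among the 16065 genes with enough counts to be tested. The cells carried the kinase PERK (genotype WT) or lacked it (genotype PERK -/-). Each genotype received DMSO (the solvent), halofuginone, BtdCPU or thapsigargin, or thapsigargin together with either of the other agents, and each of the 12 groups held 3 replicate libraries. No transgene, dose, time of treatment or batch is named in the labels. Each genotype is described as MEF with no other line named, so a difference between genotypes cannot be told apart from a difference between the lines. Nothing says that the replicates were separate cultures, so p-values measure only the spread between these libraries, which may be technical.

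Thapsigargin blocks the calcium pump of the endoplasmic reticulum (ER), and the stress that follows activates PERK. PERK is 1 of several kinases that phosphorylate the initiation factor eIF2 alpha, which lowers protein synthesis overall while the factor ATF4 is made, and ATF4 in turn acts on genes of amino acid synthesis and transport. Halofuginone inhibits prolyl-tRNA synthetase and acts on this pathway through another eIF2 alpha kinase, GCN2, and BtdCPU is known as an activator of a further one, HRI. Asns makes asparagine from aspartate with the amide nitrogen of glutamine. The aminotransferases exchange an amino group between glutamate and a partner: Gpt2 (mitochondrial) makes alanine, Got1 (cytosolic) and Got2 (mitochondrial) make or use aspartate and together carry the malate-aspartate shuttle, and Bcat1 (cytosolic) and Bcat2 (mitochondrial) act on leucine, isoleucine and valine. Glud1, glutamate dehydrogenase, joins or releases free ammonia at glutamate in the mitochondrial matrix.

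The promoter of Asns is known for an element that ATF4 binds together with C/EBP factors, so the stretch before the start of transcription is shown for Asns and Got1, which held the element searched, and for Gpt2, which rose the most with thapsigargin in WT cells and did not hold it. These 3 were chosen after the matches and values were seen. The windows are those of RefSeq for build GRCm38.p6, which held 9 windows for the 7 genes (2 each for Bcat1 and Bcat2, 1 each for the others). Each window held 300 bases, most of them before the start of transcription and the rest after it. The windows were searched on both strands for the composite element TGATGNAA, which is marked by capitals. Sequence outside the windows was not searched. Each line gives 100 bases 5′ to 3′ on the strand of the gene, all of them upstream of the start.
Asns (chr6:7693210-7693309, minus strand): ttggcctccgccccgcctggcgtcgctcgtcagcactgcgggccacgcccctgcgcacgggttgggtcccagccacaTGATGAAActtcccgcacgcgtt
Got1 (chr19:43524654-43524753, minus strand): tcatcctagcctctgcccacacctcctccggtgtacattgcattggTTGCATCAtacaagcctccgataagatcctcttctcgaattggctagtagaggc
Gpt2 (chr8:85492476-85492575, plus strand): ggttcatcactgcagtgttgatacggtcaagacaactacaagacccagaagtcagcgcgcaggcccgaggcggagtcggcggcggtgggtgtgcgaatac
The letters were found in 2 of the 9 windows. In Asns they read TGATGAAA and lay 23 to 16 bases before the start. In Got1 they read TGATGCAA on the reverse strand, 102 to 95 bases before the start, and the capitals show their reverse complement, as it stands on the strand of the gene. Of all 32851 promoter windows of the same length, 3.97% held the element. The ER stress element, another known motif of stress-responsive promoters searched in the same way, was in 0.119% of all windows and in none of the 9. These are matches of letters and were not tested for binding.

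Library totals ran from 32454257 to 37178107 counts, so the lowest member, Bcat2, was read at 249 counts or more in every library. Levels are given as CPM, edgeR's counts scaled to a common library size after TMM scaling, as mean ± SD of the 3 libraries of a group. Perk itself (Eif2ak3) was lower in PERK -/- libraries under all 6 treatments with no overlap, for example 9.95 ± 0.76 CPM against 31.1 ± 1.1 in DMSO. All 10 fibroblast markers searched (collagens, Vim, Thy1, Pdgfra and others) were above 1 CPM on average, with a summed level of 9362 to 21036 CPM over the libraries, and Col1a2 stood highest. Lum among them ran from 0 to 14.6 CPM over the libraries, with a median of 0.489. Summed markers of endothelium, leukocytes, muscle and pluripotent cells stayed at or below 5.33 CPM, with Cd3e at 0 in every library. Summed epithelial markers (Epcam, Cdh1, Krt8, Krt18) reached 16.9 to 23.5 CPM in WT halofuginone libraries against 0.114 to 0.337 in WT DMSO libraries. This sum was mostly Krt8 and Krt18, since Epcam and Cdh1 stayed at or below 0.169 and 1.08 CPM in every library. The neural list, mostly Tubb3, reached 205 to 228 CPM in WT thapsigargin libraries against 53.5 to 64.3 in WT DMSO libraries. Their part in the results was not tested. In bulk RNA, fewer cells of a kind and less RNA per cell cannot be told apart.

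**Figure D1:**
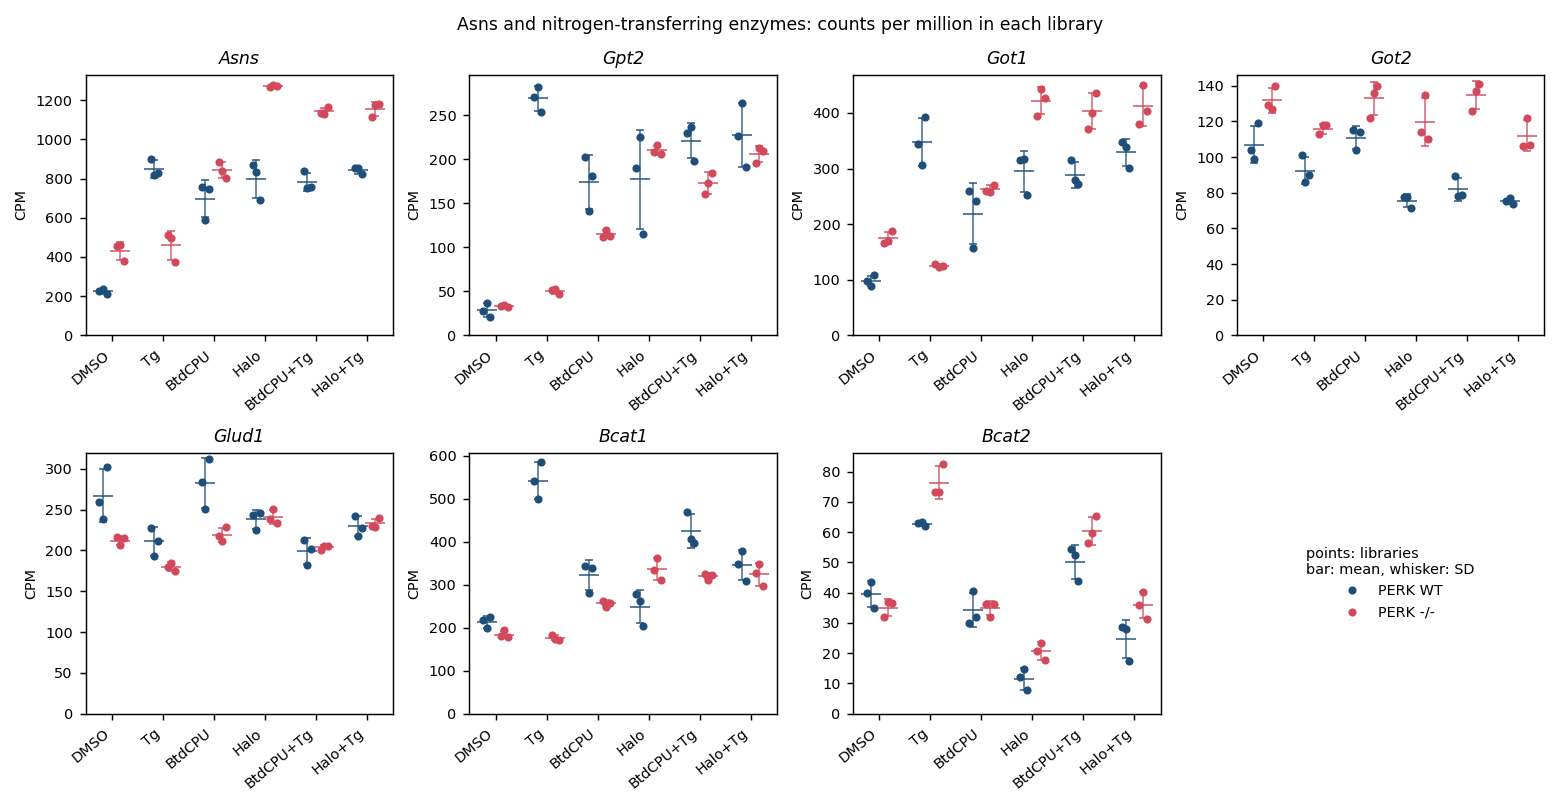
Level in CPM (vertical axis, linear, from 0) of the 7 genes in each of the 36 libraries, by treatment (horizontal axis) and genotype (colour); points are libraries, the bar is the mean of 3 and the whisker its SD. With thapsigargin Asns stood at 817 to 900.0 CPM in WT and 376 to 509.8 CPM in PERK -/- libraries, and Bcat2 was lowest with halofuginone in each genotype.

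The 7 genes stood at different levels before treatment. Divided by the length of their joined exons (GENCODE M21), mean levels in WT DMSO libraries were 81.9 CPM per kb for Asns, 63.4 for Glud1, 38.8 for Got1, 23 for Bcat1, 22.2 for Got2, 10.1 for Bcat2 and 5.07 for Gpt2. Gpt2, the lowest in DMSO, stood at 47.7 CPM per kb in WT thapsigargin libraries, above Got2 at 19.1 and close to Glud1 at 50.1. Asns was highest per kb in all 12 groups, and its mean ran from 81.9 CPM per kb in WT DMSO to 465 in PERK -/- halofuginone libraries.

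Asns was 3.79-fold higher with thapsigargin in WT cells and did not differ detectably from DMSO in PERK -/- cells, which started from a higher level. In WT DMSO libraries 1 to 3 it stood at 227, 235 and 209 CPM, and with thapsigargin at 900.0, 817 and 828 CPM. PERK -/- libraries in DMSO held 457, 459 and 379.6 CPM, and those with thapsigargin held 509.8, 497 and 376 CPM. The WT groups lay far apart, while the PERK -/- groups overlapped. The change was 1.92 on the log2 scale in WT (SE 0.107, edgeR adjusted p = 2.55e-15) and 0.10 in PERK -/- cells (SE 0.103, adjusted p = 0.551, 95% interval -0.12 to 0.31). Their difference, the interaction of genotype and treatment, was -1.83 (SE 0.147, adjusted p = 4.19e-11). In DMSO itself Asns was higher in PERK -/- libraries by 0.95 (SE 0.104, adjusted p = 4.4e-09).

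BtdCPU and halofuginone raised Asns in both genotypes. With BtdCPU it stood at 757, 588 and 746 CPM in WT libraries and at 886, 838 and 804 CPM in PERK -/- libraries. With halofuginone it stood at 871, 835 and 689 CPM in WT and at 1266, 1276 and 1274 CPM in PERK -/- libraries, the highest group of all 12. Replicate 2 of WT BtdCPU and replicate 3 of WT halofuginone were the low libraries of their groups, and both still lay above every WT DMSO library. The rises over DMSO were 1.64 and 1.83 in WT (SE 0.106 each) and 0.97 and 1.56 in PERK -/- cells (SE 0.104 and 0.105), with adjusted p of 1.81e-07 or lower in each. The smaller rise with BtdCPU in PERK -/- cells differed from that in WT by -0.67 (SE 0.146, adjusted p = 0.0331). That call was lost on leaving out any 1 of 9 libraries (WT BtdCPU 1 or 3, WT DMSO 1 or 3, PERK -/- BtdCPU 1, 2 or 3, PERK -/- DMSO 1 or 2), with adjusted p from 0.0573 to 0.198. The response to halofuginone differed by -0.28 (adjusted p = 0.142, 95% interval -0.58 to 0.02).

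Under each activator the PERK -/- libraries held more Asns than the WT libraries, by 0.67 with halofuginone, 0.55 with BtdCPU and thapsigargin and 0.46 with halofuginone and thapsigargin (adjusted p of 0.000312 or lower). With BtdCPU alone the excess was 0.27 (adjusted p = 0.0254). It missed the threshold without WT BtdCPU library 2 (0.17, adjusted p = 0.194), PERK -/- BtdCPU library 1 (adjusted p = 0.0839) or library 2 (adjusted p = 0.0532). Only with thapsigargin alone were PERK -/- libraries the lower ones, by -0.88 (SE 0.104, adjusted p = 9.47e-09). In the order of the 12 group means, PERK -/- halofuginone came first, the 2 PERK -/- combinations next (1156 ± 35.8 and 1143 ± 19.3 CPM, overlapping), and WT DMSO last. The 6 groups from WT thapsigargin (848 ± 45 CPM) down to WT BtdCPU (697 ± 94.4 CPM) each overlapped their neighbour and lay between the combinations and the overlapping PERK -/- thapsigargin and DMSO groups.

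Gpt2, which makes alanine and 2-oxoglutarate from pyruvate and glutamate in mitochondria, had the widest range of group means of the 7 genes, in fold. Its CPM in WT DMSO libraries were 28, 37 and 20.9, and in WT thapsigargin libraries 270.2, 282 and 254. The PERK -/- values were 33.4, 34.2 and 31.9 CPM in DMSO and 51.9, 52.5 and 46.6 CPM with thapsigargin. Here both genotypes rose without overlap, but to different heights: the change was 3.23 in WT (SE 0.181, edgeR adjusted p = 2.92e-15) and 0.60 in PERK -/- cells (SE 0.168, adjusted p = 0.00681), a difference of -2.62 (SE 0.24, adjusted p = 4.96e-10). With BtdCPU Gpt2 read 202, 141 and 180.4 CPM in WT and 112, 120.2 and 113 CPM in PERK -/- libraries. With halofuginone it read 189.7, 225 and 115 CPM in WT and 208, 216 and 206 CPM in PERK -/- libraries. The spread was thus wide in WT halofuginone libraries, where library 3 was low, and narrow in PERK -/- ones. The rises were 2.60 and 2.62 in WT and 1.80 and 2.66 in PERK -/- cells (SE 0.171 to 0.177, adjusted p of 2.04e-08 or lower).

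The difference between genotypes in the Gpt2 response to BtdCPU missed the threshold (-0.80, edgeR adjusted p = 0.155, 95% interval -1.29 to -0.32). With all libraries kept, it passed without the filter on low counts (-0.79, adjusted p = 0.000882). It also passed with replicates paired by number within a genotype (-0.85, adjusted p = 0.0142) and without WT BtdCPU library 2 (-0.94, adjusted p = 0.0177). For halofuginone the difference was 0.04 (adjusted p = 0.938, 95% interval -0.45 to 0.53). In DMSO the PERK -/- excess of 0.21 missed the threshold (adjusted p = 0.317), and without WT DMSO library 2 it was 0.44 (adjusted p = 0.0437). In BtdCPU libraries PERK -/- cells held less Gpt2 by -0.59 (adjusted p = 0.00314), and in thapsigargin libraries less by -2.41 (adjusted p = 2.17e-13). In halofuginone libraries the difference of 0.25 (adjusted p = 0.183) passed without WT halofuginone library 2 (0.47, adjusted p = 0.0201).

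Got1, the cytosolic aspartate aminotransferase, moved in opposite directions with thapsigargin in the 2 genotypes. In WT libraries it rose from 98, 89.6 and 108 CPM in DMSO to 344, 307 and 393 CPM. It fell in PERK -/- libraries from 167, 170.0 and 188 CPM to 129, 123 and 124 CPM. Neither pair of groups overlapped. The changes were 1.82 (SE 0.129, edgeR adjusted p = 5.79e-13) and -0.48 (SE 0.125, adjusted p = 0.00393), which differed by -2.30 (SE 0.179, adjusted p = 2.36e-11). BtdCPU gave 259.7, 157 and 241 CPM in WT and 260.3, 258 and 271 CPM in PERK -/- libraries, and halofuginone gave 316, 318 and 253 CPM in WT and 395, 443 and 426 CPM in PERK -/- libraries. All 4 activator groups lay above their own DMSO group. The rises were 1.15 and 1.58 in WT and 0.59 and 1.27 in PERK -/- cells, with adjusted p of 0.00379 or lower. The responses to BtdCPU differed by -0.56 (adjusted p = 0.195, 95% interval -0.93 to -0.20). This difference passed with replicates paired by number within a genotype (-0.55, adjusted p = 0.0369) and without WT BtdCPU library 2 (-0.76, adjusted p = 0.0021). Got1 was higher in PERK -/- than in WT libraries in DMSO (0.83), in halofuginone (0.51) and with thapsigargin combined with BtdCPU (0.48) or with halofuginone (0.32). The last of these, with adjusted p = 0.0244, was lost without WT library 3 (adjusted p = 0.108) or PERK -/- library 2 (adjusted p = 0.0667) of that treatment. In BtdCPU libraries the difference of 0.26 (adjusted p = 0.0747) passed without WT BtdCPU library 1 (0.40, adjusted p = 0.0134) or 3 (0.34, adjusted p = 0.0489).

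Got2, the mitochondrial partner, moved little and mostly downward. Group means lay between 75.2 ± 1.54 and 111 ± 6.25 CPM in WT and between 112 ± 8.73 and 135 ± 7.77 CPM in PERK -/- libraries. In WT cells halofuginone lowered it from 104, 98.8 and 119 CPM to 77.7, 77.8 and 71.3 CPM, a change of -0.50 (SE 0.0896, edgeR adjusted p = 1.06e-05). The same treatment of PERK -/- cells gave 114, 135 and 110.4 CPM against 129.5, 127 and 140.1 in DMSO, overlapping values with a change of -0.14 (adjusted p = 0.209). The difference between genotypes, 0.36 (adjusted p = 0.0252), was lost without WT DMSO library 3, PERK -/- halofuginone library 2 or PERK -/- DMSO library 1 or 2 (adjusted p 0.0511 to 0.0856). Thapsigargin changed WT Got2 by -0.22 (adjusted p = 0.0453) with overlapping libraries, a call lost without WT thapsigargin library 2 or 3 or DMSO library 1 or 3 (adjusted p 0.0582 to 0.256). Got2 was higher in PERK -/- libraries under all 6 treatments, by 0.26 to 0.71. The value for BtdCPU (0.26, adjusted p = 0.0146) did not pass without WT library 2 (adjusted p = 0.069) or PERK -/- library 2 (0.0529) or 3 (0.0721), and the other 5 had adjusted p of 0.00572 or lower.

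The ratio of Got1 to Got2 CPM shows the shift within the pair. It was 0.918 ± 0.0205 in WT DMSO and 1.32 ± 0.0308 in PERK -/- DMSO libraries. Thapsigargin libraries had ratios of 3.78 ± 0.513 (WT) and 1.08 ± 0.0502 (PERK -/-). Every library treated with halofuginone, alone or with thapsigargin, had a ratio between 3.28 and 4.62 in either genotype, and every library treated with BtdCPU alone lay between 1.52 and 2.26. These ratios compare 2 genes of different length and are a description within each library. They were not tested.

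**Figure D2:**
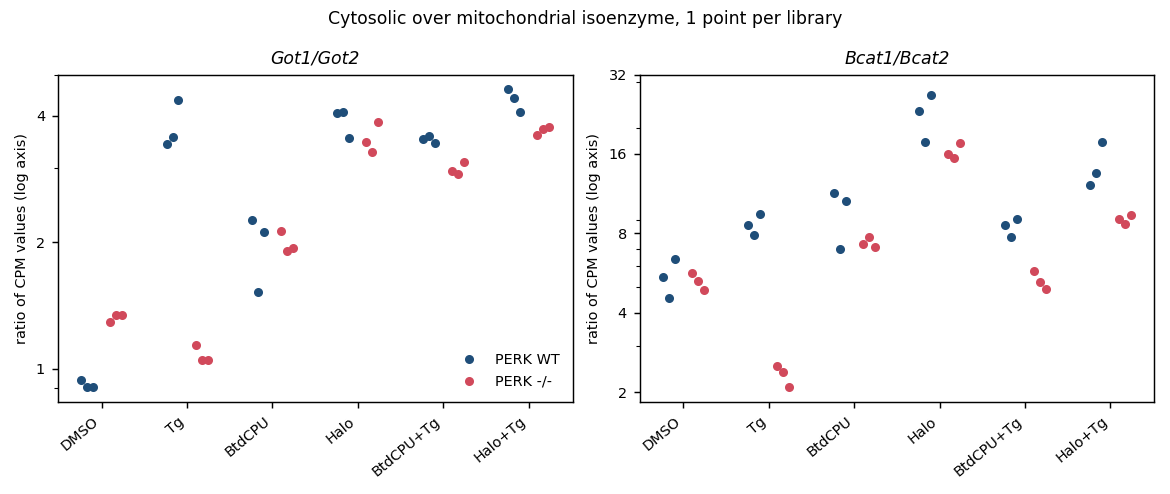
Ratio of the cytosolic to the mitochondrial isoenzyme, Got1 over Got2 and Bcat1 over Bcat2, in each library (vertical axis, logarithmic; ratio of CPM values), by treatment and genotype. With thapsigargin the WT libraries lie above and the PERK -/- libraries below their DMSO libraries for both pairs, and halofuginone libraries have Bcat1/Bcat2 ratios of 15.4 to 26.7.

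Bcat1, the cytosolic branched-chain aminotransferase, rose with thapsigargin in WT cells and not detectably in PERK -/- cells. Its CPM were 219, 199 and 225 in WT DMSO and 541, 499.6 and 586 in WT thapsigargin libraries, and 181, 194 and 179 in PERK -/- DMSO and 184, 174 and 172 in PERK -/- thapsigargin libraries. The change was 1.34 in WT (SE 0.103, edgeR adjusted p = 3.32e-12) and -0.06 in PERK -/- cells (adjusted p = 0.72, 95% interval -0.27 to 0.15), a difference of -1.40 (SE 0.144, adjusted p = 4.01e-09). BtdCPU raised it to 344, 281 and 339 CPM in WT and 263, 249 and 258 CPM in PERK -/- libraries, changes of 0.58 and 0.48 (adjusted p = 8.33e-05 and 0.00392) that differed by -0.11 (adjusted p = 0.852, 95% interval -0.40 to 0.19). Halofuginone gave 279.5, 262 and 205 CPM in WT and 334, 362 and 312 CPM in PERK -/- libraries. The WT change of 0.22 missed the threshold (adjusted p = 0.0592) and passed without WT halofuginone library 3 (0.29, adjusted p = 0.0115). With all libraries kept, it passed with RLE size factors (0.24, adjusted p = 0.0315), the replicate block (0.21, adjusted p = 0.0317) and DESeq2 (0.24, adjusted p = 0.0262). The PERK -/- change was 0.86 (adjusted p = 3.77e-08), larger by 0.65 (SE 0.143, adjusted p = 0.000701). Between genotypes, PERK -/- libraries held less Bcat1 in thapsigargin (-1.62), BtdCPU with thapsigargin (-0.41) and BtdCPU (-0.33), and more in halofuginone (0.43), with adjusted p of 0.00757 or lower.

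Bcat2, the mitochondrial isoenzyme and the lowest of the 7 in CPM in halofuginone libraries, had a pattern of its own. Thapsigargin raised it in both genotypes. In WT libraries it went from 39.9, 43.6 and 35.1 CPM to 63.1, 63.3 and 61.9 CPM, a change of 0.67 (SE 0.165, edgeR adjusted p = 0.00128). The PERK -/- libraries went from 32, 36.8 and 36.5 CPM to 73.3, 73.3 and 82.5 CPM, a change of 1.12 (SE 0.166, adjusted p = 3.82e-06). The responses differed by 0.45 (adjusted p = 0.127, 95% interval -0.03 to 0.94). This difference passed with replicates paired by number within a genotype (0.44, adjusted p = 0.0355). It also passed in a fit of the compared groups alone (0.44, adjusted p = 0.0195). Halofuginone lowered it to 12, 14.8 and 7.68 CPM in WT and to 20.8, 23.5 and 17.7 CPM in PERK -/- libraries. These values lay below every DMSO library. The falls were -1.78 (SE 0.174, adjusted p = 1.61e-10) and -0.76 (SE 0.168, adjusted p = 0.000429), which differed by 1.02 (SE 0.239, adjusted p = 0.00127). BtdCPU gave values overlapping DMSO in both genotypes, with changes of -0.21 (adjusted p = 0.4, 95% interval -0.55 to 0.13) and -0.01 (adjusted p = 1, 95% interval -0.35 to 0.33). In halofuginone libraries PERK -/- cells held more Bcat2 by 0.85 (adjusted p = 8.02e-05).

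The 2 isoenzymes of the branched-chain pair therefore stood in different proportion by group. The Bcat1 to Bcat2 ratio of CPM was 5.49 ± 0.929 in WT DMSO and 5.28 ± 0.381 in PERK -/- DMSO libraries, overlapping values. It was 8.64 ± 0.79 in WT and 2.33 ± 0.218 in PERK -/- thapsigargin libraries, and 22.6 ± 4.52 and 16.3 ± 1.11 in halofuginone libraries. With BtdCPU and thapsigargin it was 5.32 ± 0.419 in PERK -/- libraries, overlapping their DMSO group and above every PERK -/- thapsigargin library. In GENCODE M21 the gene span of the antisense RNA 0610005C13Rik reaches exons of Bcat2, that of Gm26666 exons of Bcat1 and that of Gm45760 exons of Got2. The library kit was strand-specific per the labels, but use of strand in the counting is not given in the sources used here. 0610005C13Rik had at most 11 counts in a library, or 2.33% of Bcat2, and Gm26666 at most 4. A processed pseudogene is annotated for Got2 and for glutamate dehydrogenase, and how reads shared with such copies were counted is not given either.

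Glud1 varied within a narrow range. Its group means lay between 180.1 ± 5.17 CPM (PERK -/- thapsigargin) and 282 ± 30.6 CPM (WT BtdCPU), and each of the 12 groups overlapped its neighbour in the order of the means. Thapsigargin lowered it from 259, 239 and 302 to 228, 193 and 211 CPM in WT libraries (-0.34, SE 0.0847, edgeR adjusted p = 0.00133). The PERK -/- libraries went from 216, 207 and 215 to 180.0, 185 and 175 CPM (-0.24, adjusted p = 0.0336), a call lost without PERK -/- thapsigargin library 1 or 3 or DMSO library 1 or 2 (adjusted p 0.0507 to 0.0911). The 2 responses differed by 0.10 (adjusted p = 0.543, 95% interval -0.15 to 0.35). BtdCPU gave 0.08 and 0.05 in the 2 genotypes and halofuginone -0.16 and 0.18, and none of these passed. The WT halofuginone value passed without WT halofuginone library 1 (-0.24) or 3 (-0.23) or DMSO library 2 (-0.24), with adjusted p of 0.0205 to 0.0307. The difference in the halofuginone response, 0.34 (adjusted p = 0.025), did not pass without WT halofuginone library 2, WT DMSO library 3 or PERK -/- DMSO library 2 (adjusted p 0.0515 to 0.1). PERK -/- cells held less Glud1 than WT in DMSO (-0.33, adjusted p = 0.00174) and BtdCPU (-0.36, adjusted p = 0.000548). They also held less in thapsigargin (-0.23, adjusted p = 0.0202), but not without WT library 1 (adjusted p = 0.125) or PERK -/- library 3 (adjusted p = 0.0672).

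**Figure D3:**
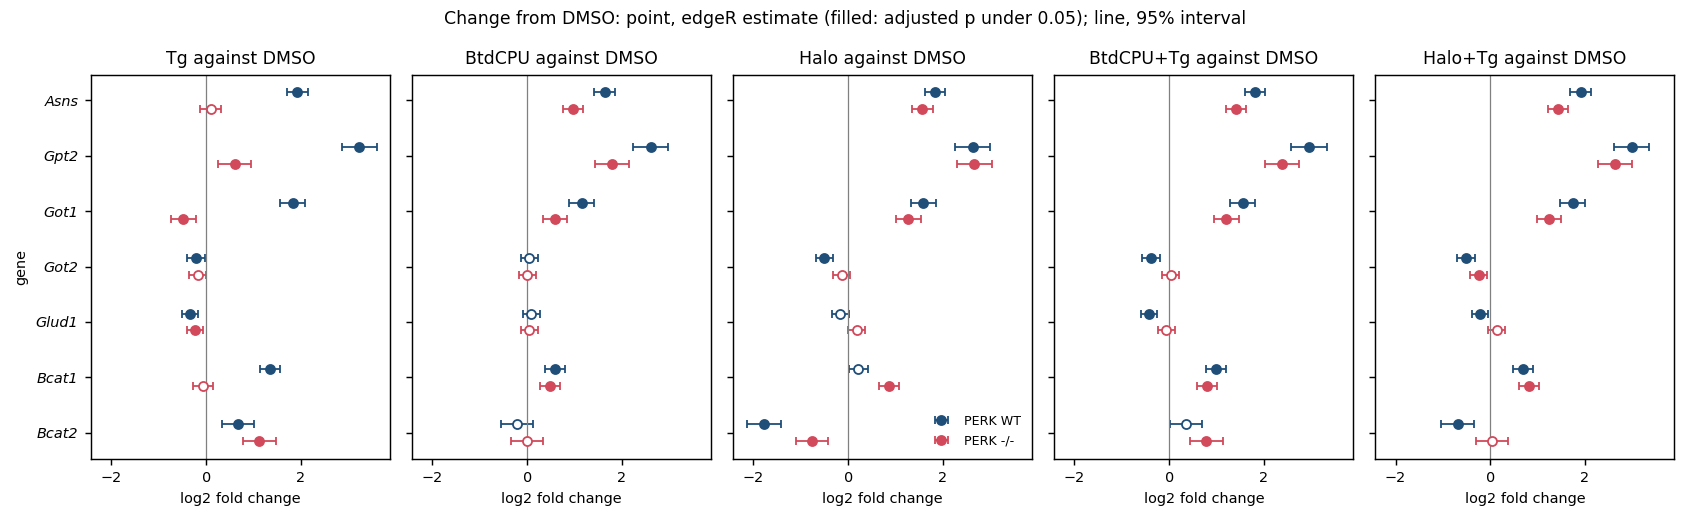
Change from DMSO (horizontal axis, log2 fold change) of the 7 genes (vertical axis) for 5 treatments, WT and PERK -/- in separate colours; points are edgeR estimates, filled where the adjusted p is under 0.05, and lines are 95% intervals. With thapsigargin the estimates for Asns are 1.92 in WT and 0.10 in PERK -/- cells, and those for Got1 are 1.82 and -0.48.

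Counted over the 7 genes, thapsigargin changed all 7 in WT cells, 5 upward (Asns, Gpt2, Got1, Bcat1, Bcat2) and 2 downward (Got2, Glud1), where 47.6% of all tested genes were called. In PERK -/- cells it changed 4, Gpt2 and Bcat2 upward and Got1 and Glud1 downward, where 27.9% of all genes were called. BtdCPU raised the same 4 genes, Asns, Gpt2, Got1 and Bcat1, in WT cells (22.2% of all genes called) and in PERK -/- cells, where only 3.59% of all genes were called. Halofuginone raised Asns, Gpt2 and Got1 and lowered Got2 and Bcat2 in WT cells (68.2% of all genes called). Bcat1 and Glud1 missed the threshold there in the main fit and passed in some other fits, as given above. In PERK -/- cells halofuginone raised Asns, Gpt2, Got1 and Bcat1 and lowered Bcat2 (42.2% of all genes called). Against a background this high, the counts for thapsigargin and halofuginone in WT cells say little by themselves. The median change of the 7 was 1.34 in WT thapsigargin and 0.22 in WT halofuginone libraries, beside 0.015 and 0.004 over all tested genes, which moved in both directions. The comparisons with DMSO in 1 genotype share their DMSO libraries.

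With 2 agents together, WT cells differed from DMSO in 6 genes under BtdCPU and thapsigargin (4 up, 2 down, 52.6% of all genes called) and in all 7 under halofuginone and thapsigargin (4 up, 3 down, 65.7%). The Glud1 call under halofuginone and thapsigargin (-0.22, adjusted p = 0.0256) was lost without WT library 2 or 3 of that group or WT DMSO library 3 (edgeR adjusted p 0.0567 to 0.235). PERK -/- cells differed in 5 genes under BtdCPU and thapsigargin, all upward (31.4%), and in 5 under halofuginone and thapsigargin, 4 up and Got2 down (45.1%). That fall of Got2 (-0.24, adjusted p = 0.0252) was lost without PERK -/- halofuginone with thapsigargin library 1 or 3 or DMSO library 3 (adjusted p 0.0776 to 0.105).

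Adding BtdCPU or halofuginone to thapsigargin raised Asns, Gpt2, Got1 and Bcat1 in PERK -/- cells. Compared with thapsigargin alone, BtdCPU with thapsigargin raised Asns from 509.8, 497 and 376 CPM to 1135, 1129 and 1165 CPM in PERK -/- libraries, and halofuginone with thapsigargin to 1115, 1176 and 1178 CPM. The increments were 1.31 and 1.33 (SE 0.105 each, edgeR adjusted p = 5.34e-11 and 4.46e-12). Gpt2 reached 160.1, 173 and 184 CPM with BtdCPU and 196, 213 and 209 CPM with halofuginone, increments of 1.78 and 2.03. Got1 reached 372, 400.3 and 436 CPM and 381, 451 and 404 CPM, increments of 1.68 and 1.72. For Bcat1 the values were 325, 312 and 323 CPM and 328, 348 and 297 CPM, increments of 0.86 and 0.87. In each of these 8 comparisons the 3 libraries with 2 agents lay above the 3 with thapsigargin alone. A lack of overlap, in either direction, was not particular to these genes. Its share over all tested genes was not counted, so it is no result about them. Glud1 rose with halofuginone added (0.37, adjusted p = 0.000419). With BtdCPU added its change was 0.18 (adjusted p = 0.0993), which passed with the replicate block (adjusted p = 0.0181) and in a fit of the compared groups alone (0.22, adjusted p = 0.018), and the difference between the agents was not tested. Bcat2 fell with halofuginone added, from 73.3, 73.3 and 82.5 to 36.1, 40.1 and 31.4 CPM (-1.09, SE 0.166, adjusted p = 1.63e-06). With BtdCPU added the Bcat2 change was -0.34 (adjusted p = 0.108, 95% interval -0.68 to -0.00). It passed with the replicate block (adjusted p = 0.0224) and in the compared groups alone (-0.30, adjusted p = 0.00791). Got2 with BtdCPU added (0.21, adjusted p = 0.0663) passed in the same 2 fits (adjusted p = 0.0243 and 0.0119) and by DESeq2 (adjusted p = 0.0357). In the main fit BtdCPU thus changed 4 of the 7 genes (35.6% of all genes called) and halofuginone 6, 5 upward and 1 downward (52.7%).

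In WT cells, adding BtdCPU to thapsigargin changed 0 of the 7 by edgeR at an adjusted p of 0.05 (2.32% of all genes called). At an unadjusted edgeR p of 0.05, 2 of the 7 passed, beside 2727 of all 16065 tested genes. DESeq2 called 1 of the 7, beside 899 of the 11186 genes to which it gave an adjusted p. Asns stood at 838, 752 and 759 CPM against 900.0, 817 and 828 with thapsigargin alone (-0.12, adjusted p = 0.607, 95% interval -0.33 to 0.10). Bcat1 read 469, 407 and 397 CPM against 541, 499.6 and 586, values that did not overlap (-0.35, adjusted p = 0.0543). It passed with replicates paired by number (-0.36, adjusted p = 0.00607 with the replicate block), and without WT BtdCPU with thapsigargin library 1 (-0.44, adjusted p = 0.0345) or WT thapsigargin library 2 (-0.42, adjusted p = 0.0465). Adding halofuginone in WT cells left Asns at 853, 853 and 822 CPM (-0.01, adjusted p = 0.951, 95% interval -0.22 to 0.20) and changed 3 genes, all downward (45.3% of all genes called). Bcat2 fell to 28.6, 28 and 17.4 CPM (-1.35, SE 0.168, adjusted p = 1.1e-07), and Bcat1 to 349, 378 and 309 CPM (-0.65, SE 0.101, adjusted p = 4.14e-06). Got2 fell by 0.29 on the log2 scale (adjusted p = 0.00755), which was lost without WT thapsigargin library 1 (adjusted p = 0.0664).

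**Figure D4:**
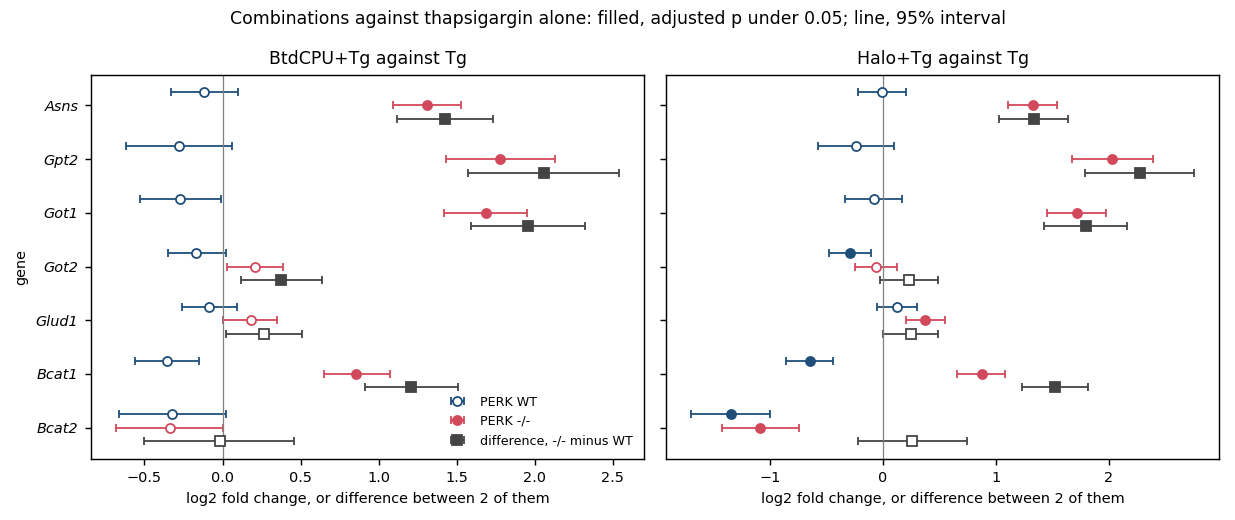
Change when BtdCPU (left) or halofuginone (right) was added to thapsigargin (horizontal axis, log2 fold change; vertical axis, gene) in WT and PERK -/- cells, and the difference between the genotypes (squares); filled marks have an adjusted p under 0.05 and lines are 95% intervals. For Asns the PERK -/- estimates are 1.31 and 1.33 and the WT estimates -0.12 and -0.01.

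Tested directly, the genotypes differed in the thapsigargin response for 4 of the 7 genes (Asns, Gpt2, Got1 and Bcat1, all lower in PERK -/- cells), where 38.1% of all genes were called. Got2, Glud1 and Bcat2 did not pass in the main fit, and Bcat2 passed with the replicate block and in a fit of the compared groups alone. The effect of adding BtdCPU to thapsigargin differed for 5 genes, all in favour of PERK -/- cells (20.8% of all genes called): Asns by 1.43, Gpt2 by 2.06, Got1 by 1.95, Bcat1 by 1.21 and Got2 by 0.38. The Got2 value (edgeR adjusted p = 0.0308) was lost without WT thapsigargin library 1 (adjusted p = 0.107) or PERK -/- thapsigargin library 1 (adjusted p = 0.0694), while the other 4 had adjusted p of 3.18e-07 or lower. For halofuginone added to thapsigargin the difference passed for 4 genes (32.7%), namely Asns by 1.34, Gpt2 by 2.27, Got1 by 1.80 and Bcat1 by 1.53, with adjusted p of 2.87e-08 or lower. The Glud1 differences, 0.26 for BtdCPU (adjusted p = 0.123) and 0.25 for halofuginone (adjusted p = 0.114), passed with the replicate block (adjusted p = 0.0208 and 0.0234) and without WT thapsigargin library 2 (0.37 and 0.36, adjusted p = 0.0331 and 0.028). The BtdCPU one also passed without WT BtdCPU with thapsigargin library 1 (0.36, adjusted p = 0.0442), and the halofuginone one with library size only (0.28, adjusted p = 0.0275). These comparisons share the thapsigargin libraries with the first. For BtdCPU alone Asns was the gene called (0.199% of all genes), and for halofuginone alone Got2, Glud1, Bcat1 and Bcat2 were called (35%), each with a higher value in PERK -/- cells.

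Between the genotypes within a treatment, PERK -/- libraries differed from WT in 4 of the 7 genes in DMSO (3 higher, Glud1 lower), where 49.5% of all genes were called. In thapsigargin they differed in 6 (Got2 higher, 5 lower), where 65.6% were called, and in BtdCPU in 5 (2 higher, 3 lower), where 53% were called. In halofuginone 5 were higher (65.9% of all genes called), in BtdCPU with thapsigargin 3 were higher and Bcat1 was lower (60.3%), and in halofuginone with thapsigargin 4 were higher (62.1%). Bcat2 in that last treatment (0.54, edgeR adjusted p = 0.00588) did not pass without WT library 3 (0.34, adjusted p = 0.0797). Since 49.5% to 65.9% of all tested genes were called between the lines, counts of 4 to 6 of 7 lie near the background.

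The remaining genes of the same pathways were read from 5 lists, and the percentage in brackets beside a count is the share of all tested genes called in that comparison. Many of the counts lie near that share and are then no result about the list. Those that use asparagine or aspartate (11 listed, 10 tested) included the asparaginyl-tRNA synthetases. In WT thapsigargin 4 of 10 rose and none fell (47.6%), with a median of 0.21. Nars rose from 479, 461 and 449 to 1642, 1374 and 1683 CPM (1.76, SE 0.0939, edgeR adjusted p = 1.13e-15). Aspa, which cleaves N-acetylaspartate, had the highest estimate in the list but rested on 0, 0 and 0 counts in DMSO and 6, 0 and 4 with thapsigargin, so no fold is given. Ass1, which joins aspartate to citrulline, had the lowest value (-0.38, adjusted p = 0.129). In PERK -/- thapsigargin 3 of 10 fell and none rose (27.9%), with a median of -0.29. Adss, which uses aspartate to make AMP, was lowest (-0.79, adjusted p = 9.25e-09) and Aspg, an asparaginase, highest (0.86, adjusted p = 0.337). Over thapsigargin alone, BtdCPU in PERK -/- cells raised 6 of 10 and lowered none (35.6%, median 0.40), led by the mitochondrial Nars2 (1.38, adjusted p = 2.49e-11) and Nars (1.05, adjusted p = 2.95e-10), with Aspg lowest (-1.63, adjusted p = 0.0508). The genotypes differed in the thapsigargin response for 6 of the 10 (38.1%), 5 of them lower in PERK -/- cells.

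Among genes that use or make glutamine (12 listed, all tested), 5 rose and 1 fell in WT thapsigargin (47.6%, median 0.12). The amidotransferases of hexosamine synthesis rose: Gfpt1 by 1.21 (edgeR adjusted p = 2.27e-11) and Gfpt2 by 1.90 (adjusted p = 0.000111), the latter from 0.393 to 2.29 CPM in DMSO to 4.55 to 4.95 CPM. Ctps2, a CTP synthetase, fell (-0.81, adjusted p = 2.27e-06). With thapsigargin in PERK -/- cells 2 rose and 4 fell (27.9%, median -0.19), with Gfpt1 up (0.76, adjusted p = 6.09e-07) and Ctps, the other CTP synthetase, down (-0.96, adjusted p = 4.32e-05). Gfpt2 had the lowest estimate there (-1.20, adjusted p = 0.224). In WT halofuginone 5 rose and 5 fell (68.2%, median -0.05). Glul, glutamine synthetase, was highest, at 62.6, 40.9 and 58.1 CPM against 19.9, 17.9 and 25.1 in DMSO (1.36, adjusted p = 3.42e-09), and Gls2, a glutaminase read at 20 to 74 counts in these libraries, was lowest (-1.45, adjusted p = 2.99e-05). Glul did not change detectably with halofuginone in PERK -/- cells (0.01, adjusted p = 0.975), and its response differed from that of WT by -1.35 (adjusted p = 1.52e-05).

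The other aminotransferases (12 listed, 8 tested) were called in both directions. In WT thapsigargin 3 rose and 1 fell (47.6%, median 0.51). Ccbl1, a kynurenine aminotransferase, rose by 1.41 (edgeR adjusted p = 3.88e-06) and Psat1, which makes phosphoserine with nitrogen from glutamate, by 0.97 (adjusted p = 1.77e-08). Gpt, the cytosolic isoenzyme of Gpt2, fell from 4.4, 4.67 and 5.85 CPM to 1.67, 2.86 and 3.16 CPM (-0.95, adjusted p = 0.00132), opposite in direction to Gpt2. With thapsigargin in PERK -/- cells 1 rose and 1 fell (27.9%, median 0.18): Oat, ornithine aminotransferase, rose by 0.57 (adjusted p = 1.06e-05), and Phykpl fell (-0.26, adjusted p = 0.0261). Aadat had the lowest estimate (-0.63, adjusted p = 0.311), and Abat the highest, from 0, 0 and 0 counts in DMSO and 3, 1 and 0 with thapsigargin, so no fold is given. In WT halofuginone 3 rose and 3 fell (68.2%, median 0.26). Ccbl2, another kynurenine aminotransferase, was lowest, at 2.76, 2.55 and 0.925 CPM against 11.5, 14.4 and 7.74 in DMSO (-2.43, adjusted p = 3.85e-08). Aadat was highest (1.89, adjusted p = 0.00127), on 4 to 8 counts in DMSO and 10 to 32 with halofuginone. Halofuginone lowered Gpt in both genotypes, by -1.04 (adjusted p = 0.000303) in WT and -1.47 (adjusted p = 7.74e-06) in PERK -/- cells. Got1l1, Agxt, Agxt2 and Tat had too few counts to be tested.

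The next list held partners of Got1 and Got2 in the malate-aspartate shuttle together with mitochondrial glutamate carriers (7 listed, 6 tested). Tested were the malate dehydrogenases Mdh1 and Mdh2, the shuttle carriers Slc25a11, Slc25a12 and Slc25a13, and the glutamate carrier Slc25a22. In WT halofuginone libraries 6 of 6 fell (68.2%), with a median of -0.81 against 0.004 over all tested genes. Mdh1, the cytosolic malate dehydrogenase, had the lowest value, at 124, 125 and 101 CPM against 329.9, 387 and 232 in DMSO (-1.44, edgeR adjusted p = 1.81e-07), and Mdh2, the mitochondrial one, the highest (-0.73, adjusted p = 6.8e-09). Halofuginone lowered 4 of 6 in PERK -/- cells (42.2%, median -0.50), led by the aspartate-glutamate carrier Slc25a12 (-0.88, adjusted p = 4.98e-11). The responses differed between genotypes for 4 of the 6 (35%), each less negative in PERK -/- cells. With thapsigargin 1 rose and 2 fell in WT (47.6%) and 1 rose and 1 fell in PERK -/- cells (27.9%). Got1 rose in the same WT halofuginone libraries in which the 6 tested genes of this list and Got2 fell.

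Downstream of Bcat1 and Bcat2, the genes that break down branched-chain keto acids (16 listed, all tested) fell in 9 of 16 cases and rose in 2 in WT halofuginone libraries (median -0.57). That is 11 of 16 called, near the 68.2% of all genes, and the median over all genes was 0.004. Bckdha, a subunit of the branched-chain keto acid dehydrogenase, was lowest, at 13.5, 15.3 and 9.25 CPM against 33.5, 37.7 and 33.5 in DMSO (-1.46, edgeR adjusted p = 1.06e-10), and Dbt, another subunit, was highest (0.69, adjusted p = 1.43e-05). Halofuginone libraries of PERK -/- cells had 2 that rose and 3 that fell (42.2%, median -0.09). The lowest was Ppm1k, the phosphatase that switches the dehydrogenase on (-1.56, adjusted p = 0.000152), and Dld, a subunit the dehydrogenase shares with other complexes, was highest (0.41, adjusted p = 0.00784). In PERK -/- thapsigargin libraries 7 rose and 1 fell (27.9%, median 0.27), with Ppm1k (0.88, adjusted p = 0.0161) and Bckdha (0.69, adjusted p = 0.000157) highest and Dbt lowest (-0.44, adjusted p = 0.00852). In WT thapsigargin libraries 3 rose and 2 fell (47.6%, median -0.09).

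The genes whose level followed the 7 most closely were read over the 12 group means among 10227 genes of at least 2 on the average log2 CPM scale, as Pearson's r of log2 CPM. For Asns the 5 closest were Aldh18a1 (0.985), which makes the precursor of proline, the seryl-tRNA synthetase Sars (0.983), Arhgef2 (0.972), AU040320 (0.967) and Got1 (0.962). For Gpt2 they were Slc7a11 (0.992), the cystine-glutamate exchanger, and LOC105246825 (0.987). Bcat2 was closest to Lman1 (0.978), a cargo receptor of the secretory pathway, and Edem2 (0.965), which acts in the breakdown of misfolded ER proteins. Got1 was closest to Rae1 and Dnaja3, Got2 to Eif3i and Vps36, Bcat1 to Trim35 (0.963) and Rnaset2b, and Glud1, with the weakest likeness, to Acot7 (0.864) and Chst11. Within the set r was 0.96 for Asns with Got1, 0.89 for Gpt2 with Got1, 0.88 for Asns with Gpt2 and 0.85 for Gpt2 with Bcat1, while Bcat2 with Asns gave -0.20. The 12 means share their libraries and their scaling, and these values are descriptions without a test.

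Atf4 transcript, read for comparison, did not order the groups as Asns did. It was highest in WT thapsigargin (1408 ± 87.7 CPM) and PERK -/- BtdCPU with thapsigargin (1370 ± 74.5 CPM) and stood at 849 ± 35.2 CPM in PERK -/- halofuginone libraries, where Asns had its highest mean of 1272 ± 5.41 CPM. Halofuginone raised Atf4 by 0.55 in PERK -/- (edgeR adjusted p = 0.000111) and 1.20 in WT cells (adjusted p = 2.78e-11), a difference of -0.66 (adjusted p = 0.00104), while the Asns responses differed by -0.28 (adjusted p = 0.142). Thapsigargin raised Atf4 in PERK -/- cells by 0.31 (adjusted p = 0.0293) and in WT cells by 1.97 (adjusted p = 3.31e-15).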

How the data were processed

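Libraries were strand-specific RNA-seq libraries from total RNA, per the labels. The authors deposited 1 table of estimated counts, with a row for each gene and no scaling across libraries. The submitters' processing notes name GRCm39 and DESeq without saying for what, and the aligner, counting tool and use of strand are not given in the sources used here. A value of 0.025 stood for 0 (50.6% of values), 2.69% of the other values were not whole (tolerance 1e-09; 0% for the 7 genes), and 27 entries named by dates (0.206% to 0.278% of counts) were left out. Entries sharing a symbol (39 symbols, 86 entries) were summed and counts rounded. The chi-square between libraries of a group was 9.06 or more for each degree of freedom, so none was a copy of another in its group. Libraries of different groups were not compared in this way, and the check cannot tell whether libraries came from the same culture.

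Genes were tested in R 4.3.3 with edgeR 4.0.16: filterByExpr by group, TMM scaling, 12 group means, robust quasi-likelihood fit with 24 residual degrees of freedom, 25 contrasts (20 between 2 groups and 5 interactions, PERK -/- minus WT response) and Benjamini-Hochberg adjustment over 16065 genes within a contrast at 0.05. Changes are on the log2 scale. The fit was tested on simulated data for PERK -/- BtdCPU with thapsigargin against thapsigargin (15132 genes): 24.2% of genes changed by 0.5, 85.2% of those changed by 1 and 93.7% of those changed by 2 (log2) were recovered, with 4 false calls of 131. The simulation gave all genes 1 common spread (dispersion 0.0199) and changed only 200 genes, and the rates cover those that passed the filter. In the real comparison 35.6% of all genes were called, so these rates need not hold there. Replicate numbers come from the labels. Same-numbered libraries deviated together (every correlation over 0.1) in 6 of 15 pairs of WT groups, which include thapsigargin with each combination. This held in 0 of 15 pairs of PERK -/- groups. By another measure, 18 of 18 WT and 16 of 18 PERK -/- libraries correlated best with libraries of their own number in other groups. The main fit had no pairing in any comparison, and pairing by number within a genotype (the replicate block) was run as an alternative.

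Alternatives were RLE size factors, library size only, no filter, the replicate block, a fit of the compared groups alone, DESeq2 1.42.0 and leaving out each library. Genes named are the 7, Eif2ak3 and Atf4, the closest genes by correlation, and, for the comparisons described, up to 4 genes a list among those of highest and lowest change. The 7 genes and all lists were chosen with earlier results of these data known. Exon lengths and overlaps come from GENCODE M21 and promoters from RefSeq GRCm38.p6, both of another build than GRCm39. Intervals cover the spread between libraries. No molecular identifiers are named, so reads need not stand for separate molecules.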

Additional observations from a re-analysis of the deposited data

Results flagged for a closer look

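In 18 of 35 tests of the 7 genes, the response of PERK -/- cells differed from that of WT cells by the interaction term of edgeR (adjusted p under 0.05), and each value is the PERK -/- response minus the WT response on the log2 scale. The percentage in brackets is the share of all tested genes called in the same comparison. For thapsigargin against DMSO (38.1%) the differences were -1.83 for Asns, -2.62 for Gpt2, -2.30 for Got1 and -1.40 for Bcat1. For BtdCPU against DMSO (0.199%) the difference was -0.67 for Asns. For halofuginone against DMSO (35%) they were 0.36 for Got2, 0.34 for Glud1, 0.65 for Bcat1 and 1.02 for Bcat2. For BtdCPU with thapsigargin against thapsigargin (20.8%) they were 1.43 for Asns, 2.06 for Gpt2, 1.95 for Got1, 0.38 for Got2 and 1.21 for Bcat1. For halofuginone with thapsigargin against thapsigargin (32.7%) they were 1.34 for Asns, 2.27 for Gpt2, 1.80 for Got1 and 1.53 for Bcat1. The last 2 sets and the first use the same thapsigargin libraries. The Asns value for BtdCPU, both Got2 values and the Glud1 value were each lost on leaving out single libraries, as given above. Groups of 3 libraries were not tested for outlying samples.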

How the results depend on the processing

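The alternatives were run for the 7 genes in all 25 contrasts and for the counts of calls, not for single genes of the lists. No called value reversed. With all libraries kept, 983 values stayed on their side of the threshold, 43 passed it only under the alternative and 24 missed it there; with 1 library left out these were 1200, 16 and 44. Values called in neither fit are counted as unchanged even where their sign differed. The calls lost with all libraries kept were small changes of Got2, Glud1 and Bcat1 and the Asns values for BtdCPU: 10 without the filter on low counts, 10 in a fit of the compared groups alone and 4 with library size only, and none with DESeq2 or RLE size factors. Without the filter, for example, the Got2 difference between genotypes in DMSO was 0.26 (adjusted p = 0.092). The Asns difference in the BtdCPU response was -0.59 (adjusted p = 0.0968) with library size only and -0.66 (adjusted p = 0.298) in the fit of the compared groups.

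With the replicate block the calls over the 7 genes were 32 of 35 against DMSO in WT (29 without it), 24 of 35 in PERK -/- cells (23), 4 of 14 for the WT combinations against thapsigargin (3), 13 of 14 for the PERK -/- ones (10), 32 of 42 between genotypes (28) and 23 of 35 for interactions (18). For the WT combinations against thapsigargin the block changed the call for Bcat1, with BtdCPU added, and no other call. Whether libraries of the same number share a culture or batch is not given in the labels. In all, 18 of 18 WT and 16 of 18 PERK -/- libraries correlated best with their own number. Leaving out 1 library gave 27 to 32, 22 to 24, 2 to 4, 10 to 12, 26 to 31 and 15 to 20 calls in the same order. The shares of all tested genes called in the main fit are given with each comparison above. Over all tested genes the block also raised the number of calls in each contrast, by 1.07 to 18.3 times.

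Counts over all genes moved by more than 1.5 times for BtdCPU. WT BtdCPU against DMSO had 3571 calls, 5536 with the replicate block, 835 in the fit of compared groups and 1780, 1966 and 2370 without WT BtdCPU library 1, WT BtdCPU library 3 and WT DMSO library 2. PERK -/- BtdCPU had 577, against 1577 with the block, 1265 in the compared groups, 881 with DESeq2 and 326 to 353 without BtdCPU library 1 or 3 or DMSO library 1 or 2. WT BtdCPU with thapsigargin against thapsigargin had 372, against 813 unfiltered, 2080 with the block, 23 in the compared groups, 899 with DESeq2 and 41, 68 and 169 without WT BtdCPU with thapsigargin library 3, WT thapsigargin library 1 and WT thapsigargin library 3. The interaction for BtdCPU had 32, against 314, 587, 2 and 161 in the same settings, 845 without WT BtdCPU library 2 and 14, 16, 21 and 19 without WT BtdCPU 1, WT BtdCPU 3, WT DMSO 1 and PERK -/- BtdCPU 2. With library size only the median of all genes went from -0.03 to 0.13 between genotypes in halofuginone, from 0.01 to 0.15 between genotypes in BtdCPU, from -0.05 to 0.05 between genotypes in halofuginone with thapsigargin, from 0.00 to -0.11 for WT halofuginone and from 0.00 to 0.10 for the interaction of halofuginone. It moved the share of higher calls from 58.1% to 45.1% for WT BtdCPU, from 55.9% to 80.7% for WT BtdCPU with thapsigargin over thapsigargin (44.6% with DESeq2), from 48.9% to 59.8% between genotypes in BtdCPU and from 51.6% to 41.4% for the interaction of BtdCPU with thapsigargin over thapsigargin. The causes were not tested.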
